A study of Mus musculus with 6 samples.

Results

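The integrated stress response of mouse erythroblasts was examined through 10 genes: Eif2ak1, which encodes the heme-regulated kinase HRI, the transcription factor genes Atf4, Atf5 and Ddit3, the feedback genes Ppp1r15a and Trib3, and the target genes Asns, Chac1, Ddit4 and Sesn2. They were taken by symbol from a list written with earlier results of these data known, the rule itself using no measured value, and they make up 10 of the 17060 genes listed in the deposited tables. Lineage-negative BM cells of WT mice were grown in an EPO induction system and given either the vehicle DMSO (3 cultures, labeled NC) or 10 μM NUP-17d, an inhibitor of the membrane-associated protein Plek2 (3 cultures, labeled 17d), for 48 hours. The dose stands in the study's text and not in the labels. The labels give neither the age of the mice nor how many were pooled, and they do not say that the 3 cultures of a group came from different mice, so the p-values below measure the spread between these cultures, which may be technical. The labels call the cells erythroblasts. The erythroid markers Slc4a1, Epor, Klf1 and Alas2 were measured in both groups, and so were markers of neutrophils and megakaryocytes such as Mpo and Pf4.

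As background, HRI is one of the kinases that phosphorylate the translation initiation factor eIF2 on its alpha subunit. It is abundant in erythroid cells, where heme holds it inactive, and its activation under heme shortage keeps globin synthesis in balance with heme. Phosphorylated eIF2 lowers general translation but raises the translation of the mRNAs of ATF4 and ATF5, which then switch on genes for amino acid supply, redox balance and feedback. Both the phosphorylation of eIF2 and the translation of ATF4 lie outside what RNA-Seq measures, so only mRNA levels are described here.

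Promoter sequence is shown for the members that held one of the sequence elements that ATF4 and its partners are known to bind. Promoters of RefSeq genes (GRCm38.p6, 250 bases before to 50 bases after the start) were searched on both strands for TGATGNAA, the core of the element bound by ATF4 with C/EBP proteins, and for TGACGTCA, the cAMP response element. All 10 members were matched. Together they have 11 promoters in this set. The first motif was held by 3 of these 11, in 3 of the 10 members, and by 1304 of all 32851 promoters (3.97%). The second, which was added after the sequences had been seen, was held by 1 of the 11 and by 588 of all promoters (1.79%). In the first 3 lines are the 250 bases upstream of Ppp1r15a (minus strand, chr7:45526269-45526518), Asns (minus strand, chr6:7693210-7693459) and Chac1 (plus strand, chr2:119350992-119351241), and in the last line are 30 bases around the site of Trib3. Each runs 5′ to 3′ on the strand of the gene, and capitals mark the match.
Ppp1r15a: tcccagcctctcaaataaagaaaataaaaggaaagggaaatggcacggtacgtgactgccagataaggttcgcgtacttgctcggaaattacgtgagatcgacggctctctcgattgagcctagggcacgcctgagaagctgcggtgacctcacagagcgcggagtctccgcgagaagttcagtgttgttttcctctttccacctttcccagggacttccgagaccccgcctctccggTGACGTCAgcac
Asns: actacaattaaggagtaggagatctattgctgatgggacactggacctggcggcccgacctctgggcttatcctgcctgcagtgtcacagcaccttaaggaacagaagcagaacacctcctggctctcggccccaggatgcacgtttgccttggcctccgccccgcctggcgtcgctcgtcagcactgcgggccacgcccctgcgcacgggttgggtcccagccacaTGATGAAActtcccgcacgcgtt
Chac1: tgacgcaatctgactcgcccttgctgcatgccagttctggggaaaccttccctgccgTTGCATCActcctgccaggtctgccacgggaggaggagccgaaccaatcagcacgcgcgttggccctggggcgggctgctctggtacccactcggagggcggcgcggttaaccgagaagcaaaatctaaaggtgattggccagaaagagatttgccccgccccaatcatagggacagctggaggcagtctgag
Trib3: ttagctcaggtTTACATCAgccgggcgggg
With the first transcribed base counted as 1 and the base before it as -1, the matches began at -12 in Ppp1r15a, -23 in Asns, -193 in Chac1 and 15 in Trib3. Those of Chac1 and Trib3 are the first motif read on the opposite strand, and no match overlapped another. A match is a description of the letters and not evidence that a factor binds there.

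Depth was alike in all cultures, with expected counts that summed to 20076409 to 20419018. All 10 members were listed in every culture, and the smallest count of any member was 351, for Chac1. The hemoglobin share of counts was 18.3% to 20.3% with DMSO and 11.8% to 13.1% with NUP-17d, without overlap (exact permutation test, 2-sided, p = 0.1, the lowest value this design allows). Since the totals were alike, other genes took up the reads that hemoglobin left. Some other abundant mRNAs lost reads too, such as Slc4a1, with counts of 222158 to 233401 with DMSO and 160082 to 167820 with NUP-17d. The scaling of the libraries, which thus does not rest on hemoglobin alone, enters each value below. The main values are counts scaled by TMM to a common library size (CPM), which sets the bulk of genes to no net change. Under scaling by library totals only, the median of all 12306 tested genes moved from 0.01 to 0.28 on the log2 scale.

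All 10 members were called lower with NUP-17d (edgeR quasi-likelihood test, Benjamini-Hochberg adjusted p under 0.05), against 35.3% of tested genes called in either direction and 18.9% called lower. Shares of all tested genes, here and below, are not matched for level, and small differences are called more readily in genes with many reads. In DMSO cultures the members stood above 59.9% (Chac1) to 99.6% (Ppp1r15a) of genes at FPKM 1 or more. The cultures of the 2 groups did not overlap for any member, which held for 46% of tested genes in either direction and for 23.2% in this one. The median log2 fold change of the members was -0.34. The size of the difference ran from -0.10 for Ddit3 to -0.70 for Ppp1r15a, and 3 members, Ppp1r15a, Eif2ak1 and Chac1, fell by at least 0.5, as did 3.82% of tested genes, while 6.09% were called with a difference of that size in either direction. With library totals only, 5 members were still called lower (Ppp1r15a, Eif2ak1, Chac1, Atf5 and Asns), 2 were called higher (Ddit3 and Trib3), and Atf4, Sesn2 and Ddit4 were not called, beside 74.1% of tested genes called, 5.34% lower and 68.7% higher. Each of the 10 members lay below the median of all tested genes, from -0.12 (Ddit3) to -0.71 (Ppp1r15a) relative to it with TMM. A change of scaling moves members and median nearly alike. The same values with library totals only (-0.12 and -0.71) are therefore not separate support. In bulk RNA, fewer cells of a type and less RNA per cell cannot be told apart.

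**Figure D1:**
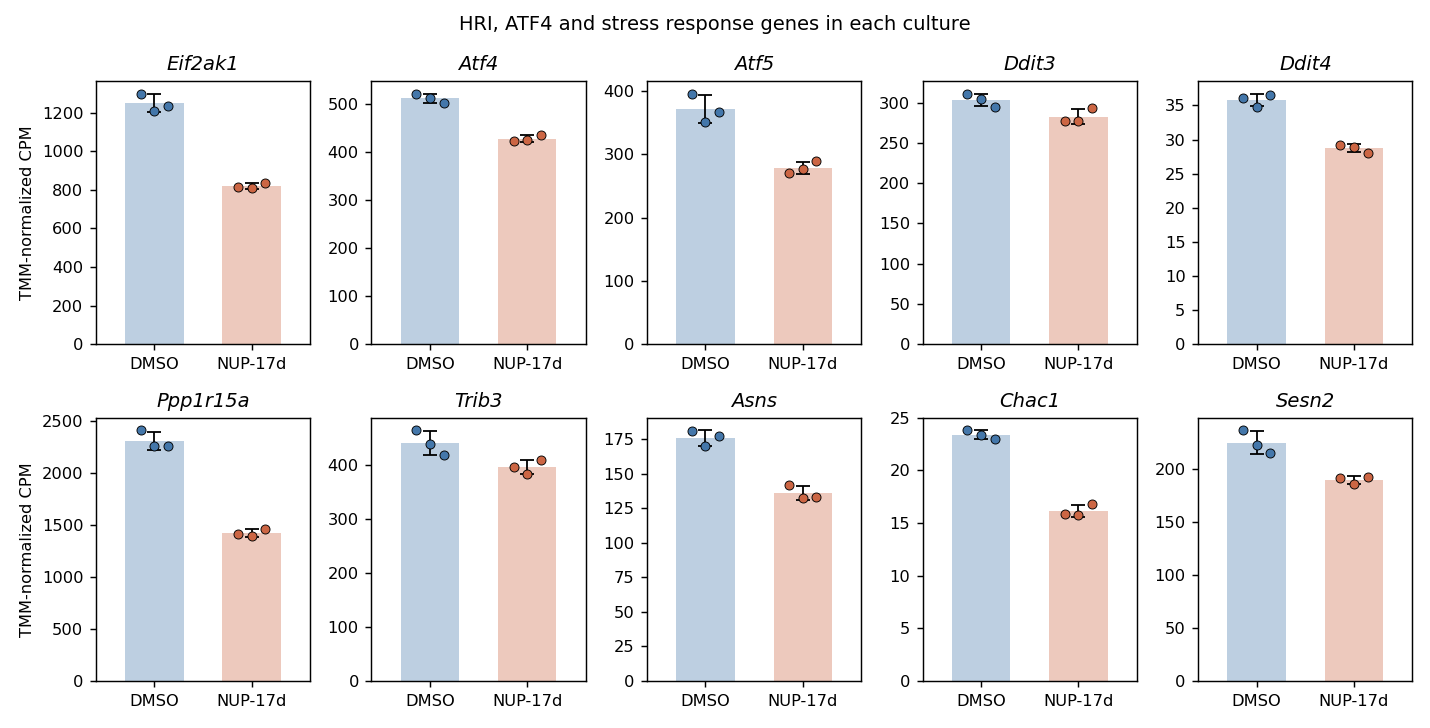
TMM-normalized CPM of the 10 members (y axis, starting at 0, its range set for each gene) in the 3 DMSO and 3 NUP-17d cultures. Bars are means, error bars are SDs (n = 3) and points are cultures; in each panel the NUP-17d points lie below the DMSO points, with the widest gaps for Ppp1r15a and Eif2ak1 and the narrowest for Ddit3.

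The kinase at the head of the response fell under both scalings. Eif2ak1 (gene ID 15467, chr5:143817792-143902717, plus strand) stood at 1299, 1208 and 1237 CPM in DMSO cultures 1, 2 and 3 and at 815, 809.6 and 836 CPM in NUP-17d cultures 1, 2 and 3. Every NUP-17d culture was far below every DMSO culture, and the 3 NUP-17d cultures were close together. The mean fell from 1248 ± 46.6 to 820.2 ± 14.1 CPM (SD, n = 3 each), a log2 fold change of -0.61 ± 0.04 (SE) or 65.7% of the DMSO level (adjusted p = 2.91e-13, edgeR). With library totals only the log2 fold change was -0.34 (adjusted p = 2.64e-10).

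HRI mRNA made up nearly all the mRNA of the eIF2 kinases in these cells. On the per-length FPKM scale Eif2ak1 took 96.4%, 95.7% and 96.0% of the summed level of the 4 kinases in the DMSO cultures and 93.9%, 94.1% and 94.3% in the NUP-17d cultures. This share does not depend on the scaling of the libraries. Its mean was 96.0% ± 0.360 and 94.1% ± 0.222 (SD, n = 3 each), with every NUP-17d culture below every DMSO culture (exact permutation test, 2-sided, p = 0.1). The other kinases are Eif2ak2 (PKR, activated by double-stranded RNA), Eif2ak3 (PERK, activated in the endoplasmic reticulum) and Eif2ak4 (GCN2, activated by uncharged tRNA), and none of these 3 was called. Eif2ak2 had 42.1 ± 2.23 CPM with DMSO and 40.0 ± 1.77 with NUP-17d, and Eif2ak4 had 19.0 ± 1.67 and 20.7 ± 0.425 (SD, n = 3 each). With library totals only all 3 were called higher, at 0.19, 0.32 and 0.39 for Eif2ak2, Eif2ak3 and Eif2ak4. So were 68.7% of all tested genes, whose median was 0.28, while Eif2ak1 was among the 5.34% called lower.

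Atf4 was called lower with TMM scaling and not with library totals only. ATF4 is the central transcription factor of the response. Atf4 (gene ID 11911, chr15:80255184-80257545, plus strand) stood at 521, 514 and 502 CPM in the DMSO cultures and 422, 426 and 436 CPM in the NUP-17d cultures. The groups were apart on this scale, at 512 ± 10.01 and 428 ± 6.97 CPM (SD, n = 3 each), with a log2 fold change of -0.26 ± 0.03 (SE; adjusted p = 7.08e-07, edgeR). The unscaled counts, however, were nearly equal, at 9436, 9744 and 9337 with DMSO and 9342, 9500 and 9509 with NUP-17d, and these overlap. With library totals only the log2 fold change was 0.01 (95% interval -0.06 to 0.07, adjusted p = 0.818), so Atf4 mRNA was lower relative to the bulk of genes and not detectably different as a share of all reads.

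Of the other transcription factor genes, Atf5 fell under both scalings and Ddit3 changed sign between them. Atf5 (gene ID 107503, chr7:44812256-44816658, minus strand), whose mRNA is also translated under eIF2 phosphorylation, ranged from 352 to 396 CPM with DMSO and from 270.2 to 289 CPM with NUP-17d. The fall to 74.9% of the DMSO level (log2 fold change -0.42 ± 0.04, SE, adjusted p = 3.56e-09, edgeR) was also called with library totals only, at -0.15 (adjusted p = 5.56e-04). Ddit3 (gene ID 13198, chr10:127290793-127296291, plus strand) encodes CHOP, a factor of the late, death-promoting phase of the response. It stood at 311, 304 and 295 CPM with DMSO and at 277.3, 277.3 and 293 CPM with NUP-17d. The third NUP-17d culture came within 2 CPM of the lowest DMSO culture, the narrowest gap of the 10 members. The log2 fold change of -0.10 ± 0.04 (SE; adjusted p = 0.0255, edgeR) was not called without DMSO culture 1 (adjusted p = 0.0933), DMSO culture 2 (0.0728), NUP-17d culture 1 (0.0854) or NUP-17d culture 2 (0.0970), and it turned to 0.16 with library totals only (adjusted p = 1.41e-04).

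The feedback gene Ppp1r15a was the most abundant member and the one that fell most. Its protein, GADD34, brings a phosphatase to eIF2 and so ends the response. Ppp1r15a (gene ID 17872, chr7:45522917-45526268, minus strand) stood at 2414, 2260.35 and 2262 CPM with DMSO and at 1414, 1399 and 1467 CPM with NUP-17d. The first DMSO culture was the highest, and all NUP-17d cultures lay far below the DMSO range. The mean fell from 2312 ± 88.2 to 1427 ± 36.0 CPM (SD, n = 3 each), to 61.7% of DMSO (log2 fold change -0.70 ± 0.04, SE, adjusted p = 4.32e-14, edgeR), and by 0.43 on the log2 scale with library totals only (adjusted p = 1.75e-12). Its constitutive counterpart Ppp1r15b went from 225 ± 5.12 to 197 ± 9.77 CPM under NUP-17d, and its log2 fold change of -0.20 (adjusted p = 1.82e-04, edgeR) turned to 0.07 with library totals only. The FPKM of Ppp1r15a per FPKM of Ppp1r15b, which no scaling of the libraries can change, was 25.2, 24.2 and 24.7 with DMSO and 16.4, 17.5 and 18.6 with NUP-17d, with no overlap (exact permutation test, 2-sided, p = 0.1).

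Trib3, the other feedback gene, had a small difference whose sign followed the scaling. It encodes a pseudokinase that is induced by ATF4 and CHOP and restrains ATF4. Trib3 (gene ID 228775, chr2:152337425-152344060, minus strand) stood at 465, 439 and 419.9 CPM with DMSO and at 398, 384 and 410.4 CPM with NUP-17d. The groups came within 10 CPM of each other. The log2 fold change was -0.15 ± 0.04 (SE; adjusted p = 0.00280, edgeR) and turned to 0.12 with library totals only (adjusted p = 0.00375).

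**Figure D2:**
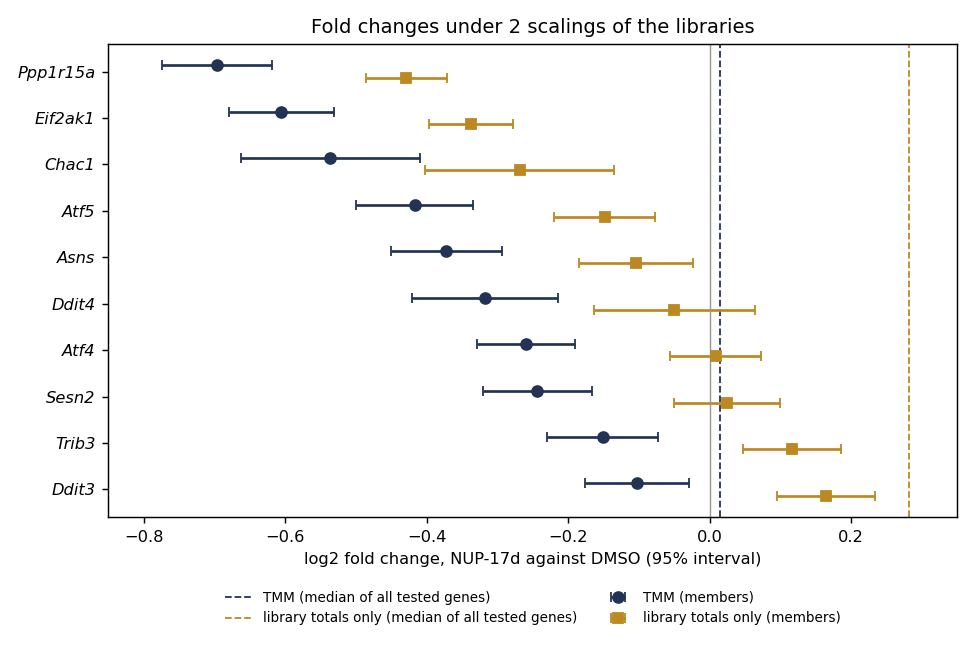
Log2 fold change of each member, NUP-17d against DMSO (x axis), with its 95% interval, under TMM scaling (circles) and scaling by library totals only (squares). The dashed lines are the medians of all tested genes, 0.01 with TMM and 0.28 with library totals. All 10 members lie to the left of the matching line, each at nearly the same distance from it under both scalings. Atf4, Sesn2, Trib3 and Ddit3 change sign between the scalings.

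The 4 target genes comprise 2 with metabolic products and 2 that restrain mTORC1. Chac1 (gene ID 69065, chr2:119351242-119354326, plus strand), which encodes an enzyme that degrades glutathione, stood at 23.8, 23.4 and 23.0 CPM with DMSO and at 15.9, 15.7 and 16.8 CPM with NUP-17d. Both groups were tight and well apart. The log2 fold change was -0.54 ± 0.06 (SE; adjusted p = 8.30e-08, edgeR), and -0.27 with library totals only. Asns (gene ID 27053, chr6:7675165-7693209, minus strand), asparagine synthetase and a textbook ATF4 target, ranged from 169.8 to 181 CPM with DMSO and from 132 to 142 CPM with NUP-17d. It fell to 77.3% of DMSO (log2 fold change -0.37 ± 0.04, SE, adjusted p = 1.00e-08, edgeR) and by 0.10 on the log2 scale with library totals only (adjusted p = 0.0198).

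The genes of the 2 stress-induced brakes on mTORC1 fell on the TMM scale and were not called with library totals only. Ddit4 (REDD1, gene ID 74747, chr10:59949675-59951770, minus strand) ranged from 34.7 to 36.5 CPM with DMSO and from 28.1 to 29.2 CPM with NUP-17d (log2 fold change -0.32 ± 0.05, SE, adjusted p = 1.32e-05, edgeR). Sesn2 (Sestrin 2, gene ID 230784, chr4:132492804-132510456, minus strand) ranged from 215 to 237 CPM with DMSO and from 186 to 192 CPM with NUP-17d (log2 fold change -0.24 ± 0.04, SE, adjusted p = 9.35e-06, edgeR). Scaled by totals alone, they stood at -0.05 (95% interval -0.16 to 0.06) and 0.02 (-0.05 to 0.10). The 3 holders of TGATGNAA, Chac1, Asns and Trib3, spread over most of the members' range, from -0.54 to -0.15.

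Counts of each gene per count of Atf4 in the same library were compared, a ratio that no scaling of the libraries can change. Ppp1r15a gave 4.63, 4.40 and 4.51 counts per Atf4 count with DMSO and 3.35, 3.28 and 3.37 with NUP-17d. Eif2ak1 gave 2.49, 2.35 and 2.47 with DMSO and 1.93, 1.90 and 1.92 with NUP-17d. Ppp1r15a, Eif2ak1, Chac1 and Atf5 were lower per Atf4 count with NUP-17d, at 0.738, 0.787, 0.825 and 0.896 of the DMSO mean, with no overlap between groups. Ddit3 and Trib3 were higher per Atf4 count, at 1.11 and 1.08 of the DMSO mean, again with no overlap. Asns, Ddit4 and Sesn2 overlapped, at 0.925, 0.960 and 1.01. Each of the 6 ratios without overlap had p = 0.1 in an exact permutation test (2-sided), adjusted p = 0.15 over the 9 ratios compared, and 3 cultures against 3 cannot go lower than 0.1.

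**Figure D3:**
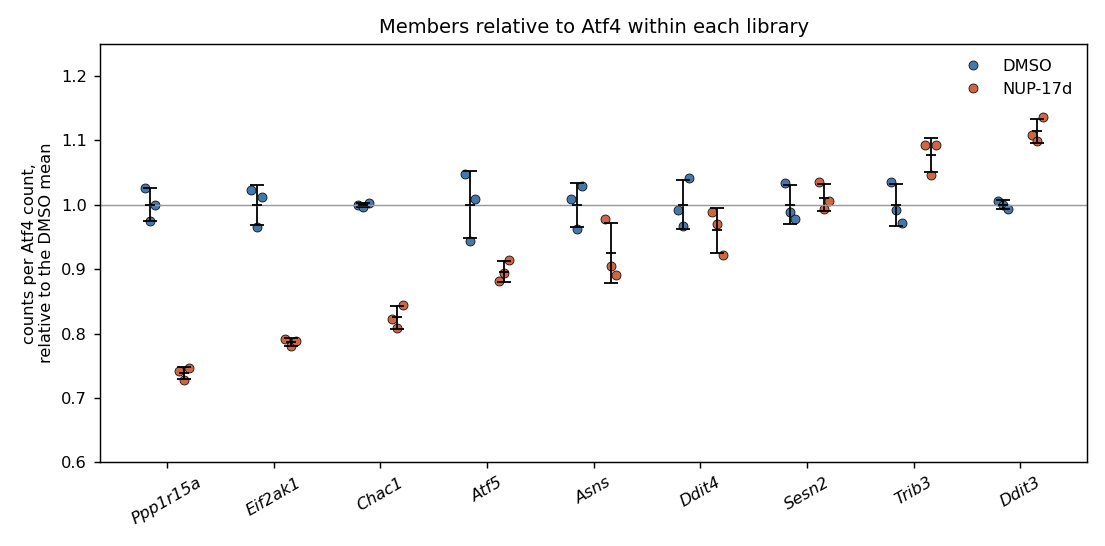
Counts of each of 9 members per count of Atf4 in the same library, divided by the DMSO mean (y axis, not starting at 0). Points are cultures, and bars mark mean and SD (n = 3). NUP-17d cultures lie below the DMSO cultures for Ppp1r15a, Eif2ak1, Chac1 and Atf5, and above them for Trib3 and Ddit3. For Asns, Ddit4 and Sesn2 the ranges of the groups overlap.

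Levels between genes were compared on the per-length FPKM scale as deposited, which follows library totals. In DMSO cultures Ppp1r15a was highest (877 to 903 FPKM) and ranked 37 among all listed genes. Eif2ak1 (396 to 405), Ddit3 (313 to 327) and Atf4 (293 to 305) followed, each with a range of its own. Trib3 (187 to 199) and Atf5 (186 to 199) overlapped. Asns (81.4 to 83.9), Sesn2 (73.0 to 77.5), Ddit4 (18.9 to 19.8) and Chac1 (13.3 to 13.7) came last. With NUP-17d the order changed at 2 places. Ddit3 (354 to 367) stood above Eif2ak1 (316 to 319) in all 3 cultures, and Sesn2 (76.2 to 78.4) and Asns (74.6 to 80.9) overlapped. The CHOP mRNA was thus the second most abundant of the 10 per length with NUP-17d and the third with DMSO.

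**Figure D4:**
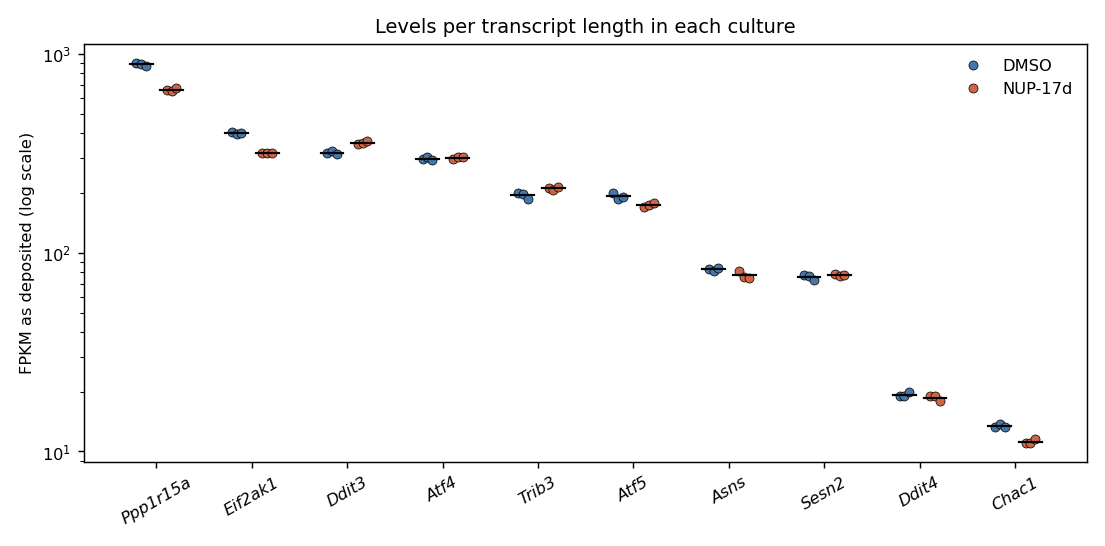
Deposited FPKM (y axis, log scale) of the 10 members in each culture, ordered by the DMSO mean. Points are cultures and lines are group means (n = 3); Ppp1r15a is highest in both groups, and Ddit3 passes Eif2ak1 with NUP-17d.

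The wider pathway was read from 62 further genes in 9 roles, of which 59 were tested. In the TMM fit 33 were called lower, 6 higher and 20 not called, beside 18.9% of all tested genes called lower and 16.4% higher. The median log2 fold change was -0.15, beside 0.01 for all tested genes. With library totals only 9 were called lower and 28 higher, beside 5.34% and 68.7% of all tested genes. The median was then 0.12, beside 0.28 for all tested genes. The 9 called lower were Ppp1cb, Cebpg, Slc7a5, Slc3a2, Slc6a9, Slc1a5, Mthfd2, Nars and Bbc3. These shares of all tested genes are also the background for the counts by role below.

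Amino acid transporters had the lowest median of the 9 roles, -0.33, with 6 of 8 tested genes called lower and 1 higher, and 4 lower and 2 higher with library totals only (median -0.06). Slc1a5, a glutamine carrier, fell from 419.8 ± 14.6 to 270.3 ± 6.62 CPM (log2 fold change -0.64). Slc6a9, the glycine carrier GLYT1 that supplies heme synthesis, fell from 405 ± 16.2 to 279 ± 8.38 CPM (-0.54), and Slc7a5, the large neutral amino acid carrier, from 336 ± 7.93 to 234 ± 3.89 CPM (-0.52; SD, n = 3 each). For all 3 the groups did not overlap, and adjusted p was 9.39e-14, 4.54e-12 and 2.16e-12 (edgeR). Aminoacyl-tRNA synthetases, which charge tRNAs, and the tRNA exporter Xpot had 10 of 13 called lower and 0 higher in the TMM fit (median -0.23), but 1 lower and 4 higher with library totals only (median 0.03). Nars fell from 286 ± 8.47 to 217 ± 2.06 CPM (-0.40), whereas Eprs, at -0.27, came to 0.00 with library totals only.

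Enzymes of amino acid and one-carbon metabolism had 5 of 8 tested genes called lower and 1 higher in the TMM fit (median -0.17), but 1 lower and 3 higher with library totals only (median 0.09). Mthfd2, a mitochondrial folate enzyme, fell from 148 ± 6.81 to 112 ± 6.10 CPM (-0.40) and Shmt2, which feeds it from serine, from 267 ± 8.12 to 214 ± 9.58 CPM (-0.32), although Shmt2 was not called with library totals only (-0.05). Gpt2, an alanine transaminase with few reads, rose from 2.50 ± 0.0307 to 3.70 ± 0.299 CPM (0.57, adjusted p = 0.00581, edgeR).

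Subunits of eIF2 and of its exchange factor eIF2B had 5 of 8 called lower and 0 higher (median -0.14). Eif2s1, the subunit that HRI phosphorylates, fell from 122 ± 0.604 to 97.3 ± 0.679 CPM (-0.33, adjusted p = 3.43e-08, edgeR) and Eif2s2 by as much (-0.33), but neither was called with library totals only, where 4 of the 8 were called higher. Of the 4 phosphatase subunits 3 were called lower and 0 higher in the TMM fit (median -0.15), and 1 lower and 2 higher with library totals only (median 0.12). Ppp1cb, a catalytic subunit of protein phosphatase 1, fell from 769 ± 13.5 to 529 ± 8.88 CPM (-0.54, adjusted p = 8.39e-13, edgeR). The mitochondrial relay that can activate HRI had no called gene in the TMM fit. Oma1 stood at 0.13 and 0610009O20Rik, the mouse gene for DELE1, at 0.11. Both were called higher with library totals only, as were 68.7% of all tested genes.

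Of the leucine zipper partners and other related regulators, 2 of 5 were called higher and 1 lower in the TMM fit (median -0.01). With library totals only 4 were called higher and 1 lower (median 0.26). Atf3, a stress-induced partner in the response, rose from 33.5 ± 0.893 to 42.6 ± 4.69 CPM (0.35, adjusted p = 5.73e-05, edgeR), and Cebpg, a dimer partner of ATF4, fell from 165 ± 2.54 to 126 ± 2.78 CPM (-0.40, adjusted p = 8.70e-10). Of the other outputs of the response, 3 of 8 tested genes were called lower and 2 higher in the TMM fit (median -0.05), and 1 lower and 4 higher with library totals only (median 0.21). Bbc3, which encodes the death-promoting protein PUMA and is also a p53 target, fell from 299 ± 16.8 to 222 ± 9.79 CPM (-0.43), and Vldlr, a lipoprotein receptor with few reads, rose from 5.604 ± 0.641 to 8.997 ± 0.421 CPM (0.68).

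**Figure D5:**
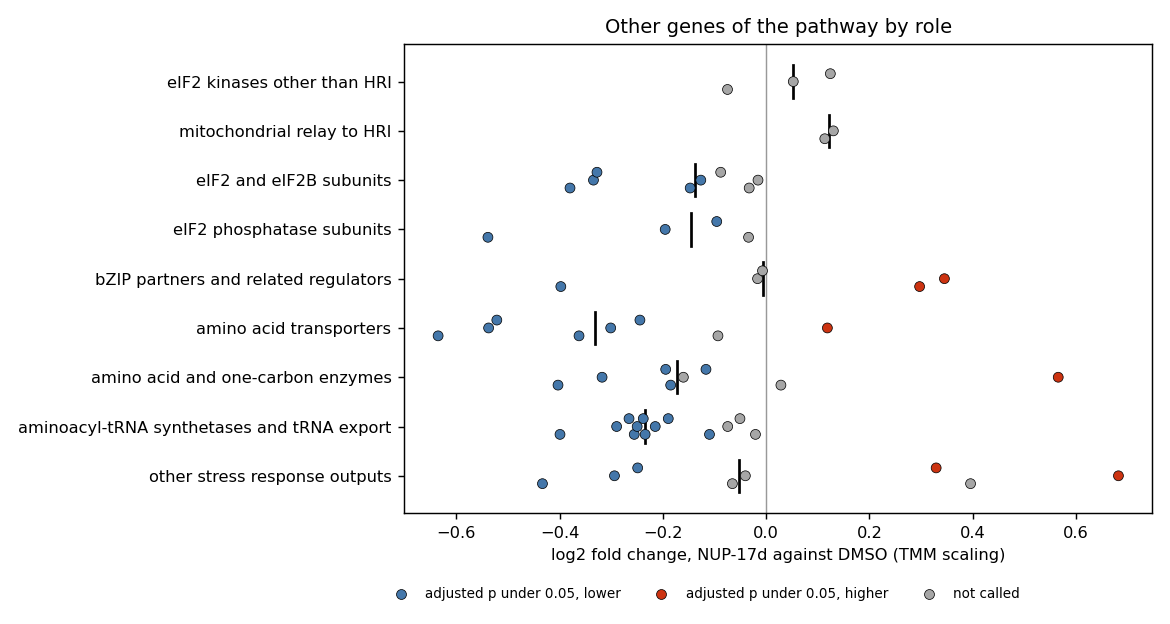
Log2 fold change under TMM scaling, NUP-17d against DMSO (x axis), of the 59 tested genes outside the 10 members, by role (y axis). Points are genes, colored by the edgeR call, and black lines are medians; transporters have the lowest median (-0.33), and the 3 kinases other than HRI and the 2 relay genes are not called.

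Marker mRNAs of several cell types differed between the groups as well. The calls and sums given here are those of the TMM fit, and calls with library totals only are not given. All 14 erythroid markers were called lower (median log2 fold change -0.70), beside 18.9% of all tested genes called lower and 16.4% higher. Their summed level was 219980 to 253980 CPM with DMSO and 121730 to 136120 CPM with NUP-17d, most of it from hemoglobin genes. Of the 14, Klf1 fell least, from 222 ± 9.76 to 188 ± 8.38 CPM (SD, n = 3 each). On the deposited FPKM, which follows library totals, Klf1 was the only erythroid marker whose mean did not fall (131.7 and 134.7). Of 10 neutrophil markers 3 were called higher and 1 lower (4065 to 4230 against 4175 to 4448 CPM), of 8 macrophage markers 2 higher and 2 lower (626 to 684 against 677 to 746 CPM), of 8 megakaryocyte markers 5 higher and 1 lower (453 to 500.5 against 522 to 542 CPM), and of 7 tested stem and progenitor markers 3 higher and 0 lower (422 to 428 against 445 to 459.9 CPM). Of 6 tested mast cell and basophil markers 1 was called higher and 3 lower (234 to 252 against 207 to 214 CPM). B cell markers summed to 14.5 to 16.1 against 13.1 to 13.6 CPM with 2 of 5 called lower, and T cell markers to 5.22 to 6.23 against 5.79 to 6.10 CPM with none of 5 called. No defining marker of any list was at 0. The part of this shift in the members' differences was not tested.

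The pattern of Eif2ak1 over the 6 cultures was most like those of Ints13, Slc1a5 and Otub2 (Pearson's r of log2 CPM 0.9999, 0.9998 and 0.9997), and that of Atf4 most like those of Mmel1, Snx22 and Phf8 (0.9992, 0.9991 and 0.9989), among 9754 genes whose mean count reached 100. With 2 groups of 3 cultures such values mainly follow the group difference, and 419 genes exceeded 0.99 with Eif2ak1 and 195 with Atf4.

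Exons of 4 members overlap exons of genes on the opposite strand in the GENCODE M21 annotation: Eif2ak1 with Aimp2 and Ankrd61, Atf5 with Il4i1 and Nup62, Ddit3 with Gm4189 and Mars, and Ppp1r15a with Tulp2. The study's methods name a stranded kit for the libraries, whereas the labels describe random priming and a DNBseq instrument with no word of strand. Whether the counting used strand is not given in the sources used here, so the values of these 4 members are uncertain to the extent that reads of the partners were counted with them. The partners that passed the filter on low counts stood below their member in both groups, Aimp2 at 48.9 and 38.6 CPM, Ankrd61 at 14.7 and 5.30, Nup62 at 169 and 147 and Mars at 92.8 and 78.9 (means with DMSO and NUP-17d), and each was itself called lower. Without strand, reads of a member could in turn be counted with its partner, so these values set no bound on the uncertainty.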

How the data were processed

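RNA of 6 cultures was sequenced after 48 hours, 3 with DMSO and 3 with NUP-17d, as the sample labels group them. The authors deposited, for each culture, an expected count per gene (an estimated number of reads that need not be whole, not normalized) and an FPKM value, the count scaled by transcript length and library total. The submitters' processing notes name the build mm10; the aligner and counting program are not given in the sources used here. Between 27.8% and 28.5% of counts were not whole. A gene missing from a culture's table was taken as 0. Counts were rounded, filtered with filterByExpr, scaled by TMM and tested over all 12306 remaining genes with the quasi-likelihood test of edgeR 4.0.16 (R 4.3.3), with Benjamini-Hochberg adjustment, a threshold of 0.05 and no covariate; SEs follow from the F statistic. The common biological coefficient of variation was 2.95%. No pair of cultures of a group agreed within counting noise (chi-square over its degrees of freedom 1.8 to 4.41), so none was merged as a library given more than once; this does not show that the cultures were grown separately. Single values per culture were compared with 2-sided exact permutation tests. Positions and promoters are those of RefSeq on GRCm38.p6, which is mm10.

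The 10 genes, the pathway list and the marker lists were chosen with earlier results of these data known. Named beside the members are, in each role, the 2 genes with the lowest p and any called gene whose log2 fold change reached 0.5 in size, and the 3 genes most correlated with Eif2ak1 and with Atf4. The alternatives were DESeq2 1.42.0, library totals only, no count filter, removal of hemoglobin genes, limma 3.58.1 on log2 FPKM with 1 or 0.1 added, a replicate block, and the fit without each single culture. Values are relative, since cell numbers and spike-in RNA were not used here.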

Additional observations from a re-analysis of the deposited data

How the results depend on the processing

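The scaling decided the sign of 4 members, of which Trib3 and Ddit3 were called higher with library totals only and Atf4 and Sesn2 were not called. With library totals only, with limma on log2(FPKM + 1) and with limma on log2(FPKM + 0.1), the log2 fold change of Atf4 was 0.00825, 0.0181 and 0.0181, that of Sesn2 was 0.0244, 0.0284 and 0.0287, that of Trib3 was 0.12, 0.12 and 0.12, and that of Ddit3 was 0.16, 0.17 and 0.17. FPKM follows library totals, so these 3 settings share 1 scaling. Under each of them 5 members were called lower and 2 higher. Among other named genes, the same 3 settings turned Eif2ak2 to 0.19, 0.18 and 0.20, Ppp1r15b to 0.0723, 0.0730 and 0.0747, and Eprs to 0.00184, 0.00595 and 0.00604. They called 28, 29 and 30 genes of the pathway list higher and 9, 9 and 9 lower, and among all genes 9115 (8458 higher, 657 lower), 9059 (8423 and 636) and 9038 (8403 and 635), against 4346 (2019 and 2327) in the TMM fit. DESeq2 called 3153 of all genes and 1276 higher, and all 10 members lower. All 10 were also called lower with hemoglobin genes removed, without the count filter and with a replicate block. Same-numbered cultures did not deviate together (correlations of 0.03, -0.02 and -0.03), so the number was not taken as a pairing, and the replicate block moved the count of all calls to 4543 and left 39 calls in the pathway list. Leaving out 1 culture at a time gave 3713 to 4008 calls among all genes, 35 to 38 in the pathway list and 9 or 10 among the members; the call lost was that of Ddit3, whose log2 fold change ran from -0.13 to -0.09. Over the alternatives the values of the 10 members kept sign and call in 111 cases and changed sign in 12. Among those 12, the values of Atf4 and Sesn2 also lost the call. The call was lost with the sign kept in 7, of which 3 are Ddit4 under the 3 settings above and 4 are Ddit3 without 1 culture. For the other named genes the counts were 294 kept and 9 with a changed sign, and with the sign kept 11 calls were lost and 11 gained. Chac1 had the fewest reads and the widest interval of the 10.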
